A study of Mus musculus with 36 samples.

Results

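Eef2, Eef1a1, Pabpc1 and Rplp0 are 4 abundant mRNAs that encode parts of the machinery that makes protein. They were followed by Ensembl transcript identifier: ENSMUST00000047864 for Eef2, ENSMUST00000042235 for Eef1a1, ENSMUST00000001809 for Pabpc1 and ENSMUST00000086519 for Rplp0. The deposited lists hold identifiers without gene names, so the names come from that choice of identifiers. These are 4 of 11037 transcripts listed in at least 1 ribosome footprint library and of 17469 listed in at least 1 RNA library, and all 4 were listed in all 36 libraries and passed the filter on low values.

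The cells were mouse embryonic fibroblasts of the strain C57BL/6J, stressed by sorbitol, which makes the medium hyperosmotic and so draws water out of cells. Stressed cells were kept at 500 mOsm for 2 h, at 600 mOsm for 2 h, or at 700 mOsm for 15 min or 2 h. Recovering cells had 15 min or 2 h of recovery after either exposure to 700 mOsm, and unstressed cells were the common reference of all 8 other conditions. Each of the 9 conditions had 2 footprint libraries (Ribo-seq, fragments of 28 to 30 nt protected by ribosomes) and 2 cytoplasmic RNA-seq libraries. All groups share the strain and the cell type, and the labels do not say whether the 2 libraries of a condition came from separate cultures. The fibroblast identity of the cells was not checked here, since fibroblast marker genes could not be matched to the identifiers.

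Eef1a1 encodes the elongation factor that brings aminoacyl-tRNAs to the ribosome, and Eef2 the elongation factor that moves the ribosome along the mRNA after each peptide bond. Pabpc1 encodes the cytoplasmic protein that binds the poly(A) tail of mRNAs and aids initiation, and Rplp0 encodes the ribosomal protein at the base of the stalk to which the elongation factors bind. All 4 belong to the class known as 5′ terminal oligopyrimidine (TOP) mRNAs, which begin with a C followed by a run of pyrimidines. Translation of TOP mRNAs is known to depend on growth signalling through mTOR.

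The genes lie, in RefSeq's GRCm38.p6 annotation, at chr10:81176631-81182509 (Eef2), chr9:78478453-78481724 (Eef1a1), chr15:36595658-36609581 (Pabpc1) and chr5:115559467-115563729 (Rplp0). The lengths behind the deposited values were 859 codons within a transcript of 3098 nt for Eef2 and 463 codons within 1794 nt for Eef1a1. They were 637 codons within 2817 nt for Pabpc1 and 318 codons within 1358 nt for Rplp0. The stretches of 120 bases around 3 of the annotated starts, 70 bases before and 50 bases from the start on, are shown because the TOP class is defined by where transcription begins. No such stretch was available for Pabpc1. They are RefSeq sequences of GRCm38.p6, from chr10:81176561-81176680 on the plus strand, chr9:78481675-78481794 on the minus strand and chr5:115559397-115559516 on the plus strand, and capitals mark a match to TATAAA or TATATAA.
Eef2: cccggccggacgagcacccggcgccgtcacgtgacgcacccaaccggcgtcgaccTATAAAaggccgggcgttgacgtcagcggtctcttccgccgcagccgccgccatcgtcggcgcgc
Eef1a1: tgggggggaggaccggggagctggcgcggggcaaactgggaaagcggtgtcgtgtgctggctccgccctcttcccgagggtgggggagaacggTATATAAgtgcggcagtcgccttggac
Rplp0: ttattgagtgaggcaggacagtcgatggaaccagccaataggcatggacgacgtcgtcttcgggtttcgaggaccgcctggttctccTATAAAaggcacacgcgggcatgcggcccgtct

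Each of the 3 stretches holds 1 of the 2 motifs. TATAAA begins at position -15 in Eef2 and at position 18 in Rplp0, and TATATAA begins at position 24 in Eef1a1, counting the first base of the annotated start as 1 and the base before it as -1. Among 32851 stretches of the same length in the table, 5.8% hold TATAAA and 1.36% hold TATATAA on either strand. The longest run of pyrimidines was tctcttcc, from position 15, in Eef2. It was ccctcttccc, from position -5, in Eef1a1 and ttctcct, from position 12, in Rplp0. The base at position 1 was g in Eef2, t in Eef1a1 and g in Rplp0. None of the 3 annotated starts was thus the C with which a TOP mRNA begins. These letters describe the stretches only and are not evidence of a binding site, and where transcription began in these cells was not measured.

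Footprint libraries held 732769 to 9102097 reads on 6193 to 10513 listed transcripts, and the libraries at 700 mOsm were the shallowest. RNA libraries held 6851958 to 55262396 reads. Within a condition the 2 footprint libraries were as alike as sampling noise allows or nearly so, with chi-square statistics per degree of freedom of 1.00 to 1.08. Their mean counts as 1 sample. Footprint changes therefore have no test and no replicate check, and their intervals are exact 95% binomial intervals of counting error only. RNA groups had n = 2, and their p-values cover the spread between library pairs only, which may be no more than technical. The list names of 4 RNA libraries disagree with their labels. For the libraries labelled 2 h recovery after 15 min at 700 mOsm and 15 min recovery after 2 h at 700 mOsm, the names give each other's combination, so every RNA value and every footprint-to-RNA value in these 2 conditions is given as labelled and rests on that label. The footprint lists have no such disagreement.

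Values are RPKM or FPKM divided by a library factor, the median ratio over abundant transcripts, and are called scaled RPKM (footprints per coding length) and scaled FPKM (RNA per transcript length). Changes are thus set against the middle of the abundant transcripts and say nothing of how much protein was made in all. Against the deposited values, this factor moved the median footprint change of all transcripts by more than 0.1 on the log2 scale in 3 comparisons with unstressed cells. Deposited minus scaled, the median differed by 0.12 at 600 mOsm and by -0.52 (15 min) and -0.44 (2 h) at 700 mOsm. TMM factors moved it by 0.20 at 500 mOsm, by 0.38 at 600 mOsm and by 0.12 at 2 h of recovery from 2 h at 700 mOsm. Eef1a1 and Rplp0 are genes with near-identical processed pseudogene copies, and how reads that match several places were counted is not given in the sources used here, so their levels are uncertain.

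The 4 mRNAs parted under stress. Footprints on Eef1a1 were 2.37-fold and 3.14-fold higher at 700 mOsm for 15 min and 2 h than in unstressed cells, while footprints on Rplp0 were 4.49-fold and 5.23-fold lower and on Eef2 2.92-fold and 3.13-fold lower. Rplp0 footprints were lowest at 600 mOsm, 32.6-fold below unstressed cells. RNA moved far less: the highest condition mean was 1.34 to 1.95 times the lowest in the 4 transcripts, against 3.63 to 36.1 times for footprints.

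**Figure D1:**
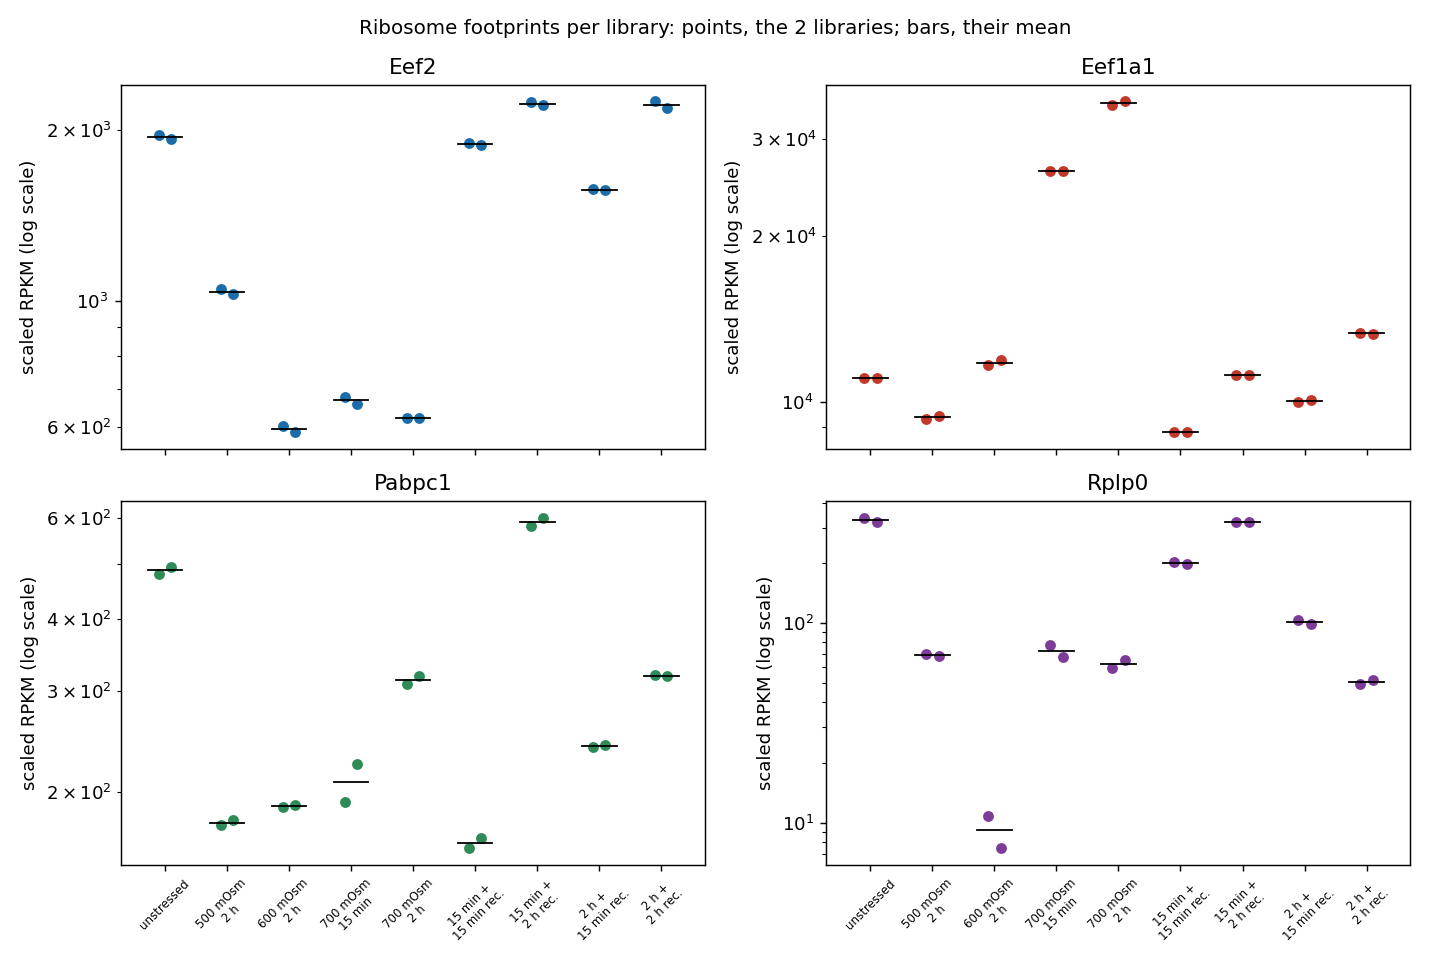
Scaled RPKM of footprints (log axis) for the 4 transcripts in the 9 conditions, with 1 point per library and a bar at the mean of the 2 libraries. Both Eef1a1 libraries at 700 mOsm for 2 h lie at the top, at 34554 and 35069, both Rplp0 libraries at 600 mOsm lie under 11, and the libraries of a condition lie close together.

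Eef1a1, the factor that delivers aminoacyl-tRNAs, carried more footprints at 700 mOsm than in any other condition. Over the 2 h doses it had 11058 and 11082 scaled RPKM in unstressed cells, 9330.3 and 9432 at 500 mOsm, 11688 and 11907 at 600 mOsm, then 34554 and 35069 at 700 mOsm. After 15 min at 700 mOsm its libraries had 26188 and 26223 scaled RPKM. The 4 libraries at 700 mOsm thus lay far above the other 14 footprint libraries. The log2 change against unstressed cells was 1.24 at 15 min (interval 1.23 to 1.26, 50806 reads against 245711) and 1.65 at 2 h (1.64 to 1.67, 62455 reads against 245711). Without the library factor, the deposited RPKM gave 0.68 at 15 min, which is under 2-fold, and 1.18 at 2 h.

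At the milder doses Eef1a1 footprints differed from the unstressed level by far less. The log2 change was -0.24 at 500 mOsm and 0.09 at 600 mOsm, where the middle of all transcripts was at -0.13 and -0.40. At 600 mOsm it was 0.22 with the deposited RPKM and 0.50 with TMM factors, and at 500 mOsm -0.16 and -0.028. Eef1a1 took 2.68% and 2.70% of all footprint reads at 700 mOsm for 15 min, 3.81% and 3.80% at 2 h, and 1.66% and 1.66% in unstressed cells. It ranked between 2 and 4 among the listed transcripts in every footprint library and stood first in every RNA library.

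Relief from 700 mOsm was followed by lower Eef1a1 footprints within 15 min. They had 8822 and 8834 scaled RPKM at 15 min of recovery after the 15 min exposure, 2.97-fold below the stressed cells. After the 2 h exposure, 15 min of recovery gave 10014 and 10093 scaled RPKM, 3.46-fold below the stressed cells. At 2 h of recovery the libraries had 11207 and 11218 after the short exposure, close to the unstressed level, and 13330.3 and 13311 after the long one, 1.20-fold above it. With the deposited RPKM the 15 min recovery from the short exposure gave a log2 change against 700 mOsm of -0.98 in place of -1.57, just under 2-fold.

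Most transcripts as long as Eef1a1 had lower footprint changes than it did. Among the 2216 tested transcripts with a coding length of 0.8 to 1.25 times its own, the median footprint change was -1.69 at 700 mOsm for 15 min, with a middle 50% from -3.04 to -0.16. At 2 h the median was -0.96 and the middle 50% ran from -2.28 to 0.30. In each comparison Eef1a1, at 1.24 and 1.65, lay above that middle 50%, and 86.9% and 91.8% of all 8849 tested transcripts lay below it. Among the 1494 transcripts best covered by reads, judged by their unstressed level, 77.4% and 89.0% lay below it.

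Eef2, the translocation factor, carried fewer footprints in every stressed condition. Over the 2 h doses it had 1960.3 and 1933 scaled RPKM in unstressed cells, 1049.5 and 1027 at 500 mOsm, 602 and 586 at 600 mOsm, then 621 and 620.5 at 700 mOsm. The shorter 700 mOsm exposure gave 675 and 659. No stressed library reached the unstressed range, and the 3 strongest stresses lay within 586 to 675 of each other. The log2 changes against unstressed cells were -0.91 (interval -0.93 to -0.89) at 500 mOsm, -1.71 (-1.74 to -1.68) at 600 mOsm, -1.54 (-1.60 to -1.49) at 700 mOsm for 15 min and -1.65 (-1.71 to -1.58) at 2 h.

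The difference between 700 and 600 mOsm was within counting error for Eef2: its log2 change was 0.06 (interval -0.01 to 0.13), and it turned to -0.53 with the deposited RPKM and to -0.25 with TMM factors. Between 2 h and 15 min at 700 mOsm the log2 change was -0.10 (-0.19 to -0.02), and it turned to 0.08 with TMM factors. At 700 mOsm 38.8% of all tested transcripts lay below Eef2 at 15 min and 32.0% at 2 h. Among the 1494 transcripts best covered by reads, 24.6% and 23.4% lay below it.

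Eef2 footprints were again near the unstressed level after 15 min of recovery. They had 1896 and 1880.1 scaled RPKM after the short exposure, 2.83-fold above the stressed cells and 0.97 of the unstressed level. After the long exposure 15 min of recovery gave 1576 and 1566, 2.53-fold above the stressed cells and 1.24-fold below the unstressed level. At 2 h of recovery the values were 2243 and 2212 after the short exposure and 2248 and 2192 after the long one, 1.14-fold above unstressed cells in each case. These last 2 conditions overlapped and were the highest of the 9.

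Pabpc1, the poly(A)-binding protein, carried fewer footprints in every stressed condition. Its scaled RPKM was lowest at 15 min of recovery after the short exposure. Over the 2 h doses it had 479.7 and 494 scaled RPKM in unstressed cells, 175 and 179 at 500 mOsm, 188 and 190.1 at 600 mOsm, then 309 and 319 at 700 mOsm. The shorter 700 mOsm exposure gave 192 and 224. All stressed libraries lay below the unstressed ones, and the lowest 2 h dose was 500 mOsm, at a log2 change of -1.46 (interval -1.51 to -1.40). The change was -1.36 (-1.43 to -1.29) at 600 mOsm, -1.22 (-1.35 to -1.10) at 700 mOsm for 15 min and -0.63 (-0.74 to -0.53) at 2 h. Of all tested transcripts, 8.62% lay below Pabpc1 at 500 mOsm and 27.8% at 600 mOsm. At 700 mOsm 43.5% lay below it at 15 min and 53.4% at 2 h, where the median of all was -0.80. Its lower footprints at 700 mOsm were thus near the middle of all transcripts.

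The lowest Pabpc1 footprints of all 9 conditions came at 15 min of recovery after the short exposure, with 160 and 167 scaled RPKM. This was 2.97-fold below unstressed cells, a log2 change of -1.57 (interval -1.63 to -1.51, 2594 reads against 14877). Only 0.170% of the 8849 tested transcripts had a lower change, and none of the 1494 transcripts best covered by reads did. The median change of all transcripts in that comparison was -0.04, with a middle 50% from -0.20 to 0.13. Against the stressed cells the log2 change was -0.35 (-0.48 to -0.21), and it turned to 0.24 with the deposited RPKM. The deposited RPKM was thus lowest at 700 mOsm for 15 min, with 139 and 164, against 175 and 183 in this recovery.

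Pabpc1 footprints at 2 h of recovery depended on the exposure. After the short exposure they had 582 and 602 scaled RPKM, 1.22-fold above unstressed cells and the highest of the 9 conditions. After the long exposure 15 min of recovery gave 239.8 and 242 scaled RPKM, 2.02-fold below unstressed cells, and 2 h gave 320.2 and 319, 1.52-fold below. The first of these was past 2-fold only by a little, and fell short of it with the deposited RPKM (-0.97), with TMM factors (-0.95) and without unstressed footprint replicate 2 (-0.99). The libraries at 700 mOsm for 2 h and at 2 h of recovery from it overlapped, with 309 to 320.2 scaled RPKM.

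Rplp0, the stalk protein, had the widest range of footprints. Over the 2 h doses it had 338 and 322 scaled RPKM in unstressed cells, 69.6 and 68.7 at 500 mOsm, 10.9 and 7.44 at 600 mOsm, then 59.4 and 65.1 at 700 mOsm. At 700 mOsm for 15 min it had 77.9 and 67.6. The dose order was thus not monotonic: the 600 mOsm libraries lay below those of every other condition, and 500 mOsm overlapped with 700 mOsm for 15 min. The log2 change was -2.24 (interval -2.36 to -2.12, 649 reads against 5029) at 500 mOsm and -5.03 (-5.45 to -4.63, 52 reads against 5029) at 600 mOsm.

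At 700 mOsm the Rplp0 change was -2.17 (-2.47 to -1.87, 96 reads) at 15 min and -2.39 (-2.73 to -2.06, 77 reads) at 2 h. Of all tested transcripts, 30.1% had a lower change at 15 min and 18.6% at 2 h. Among the 1494 transcripts best covered by reads, 16.9% and 8.70% did. Set directly against 600 mOsm, footprints at 700 mOsm for 2 h were 6.23-fold higher, a log2 change of 2.64 with a counting interval of 2.11 to 3.18. In that comparison 99.1% of the 8849 tested transcripts had a lower change. The 2 times at 700 mOsm differed by -0.22 (2 h against 15 min), with an interval of -0.67 to 0.23 that includes 0.

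Rplp0 footprints also differed between the recoveries. After the short exposure they had 202 and 199 scaled RPKM at 15 min and 320.6 and 321 at 2 h, and the second was within counting error of the unstressed level (log2 change -0.04, interval -0.10 to 0.01). Following the long exposure it had 104 and 98.5 at 15 min, 3.24-fold below unstressed cells, and 49.6 and 51.7 at 2 h, 6.41-fold below. At 2 h of recovery from the long exposure the log2 change was -2.68 (-2.82 to -2.54, 473 reads against 5029). Only 0.0113% of the 8849 tested transcripts had a lower change, and the median of the 1881 transcripts of similar coding length was -0.11. ENSMUST00000076373, which has the same coding length as Rplp0 and is described below, was lower (-2.686 against -2.679 for Rplp0).

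**Figure D2:**
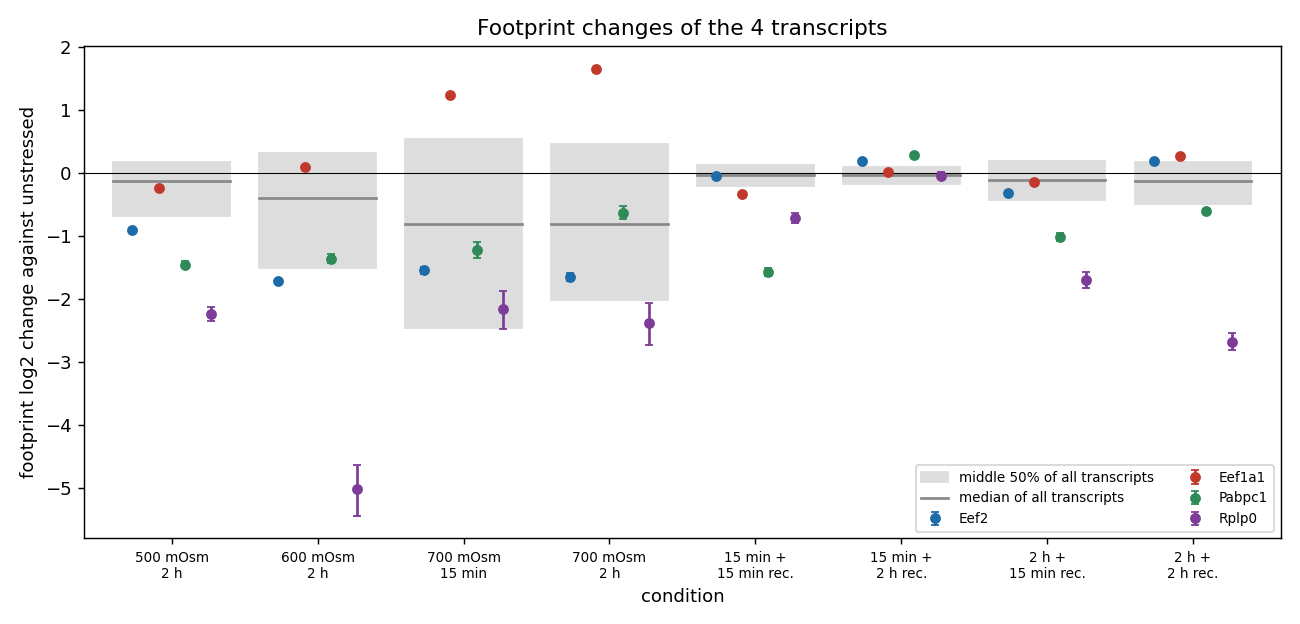
Footprint log2 change against unstressed cells for the 4 transcripts in the 8 other conditions, with exact 95% counting intervals as error bars. Grey boxes span the middle 50% of the 8849 tested transcripts and the grey line is their median. At 700 mOsm Eef1a1 is above the box and Eef2 is inside its lower part, while Rplp0 is inside it at 15 min and below it at 2 h. Rplp0 is far below the box at 600 mOsm and at 2 h of recovery from the long exposure.

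Counted together, 2 of the 4 members had at least 2-fold lower footprints at 500 mOsm, where 16.6% of the 8849 tested transcripts did. At 600 mOsm it was 3 of 4, against a background of 35.0%, and with TMM factors Pabpc1 (-0.96) no longer counted. At 700 mOsm for 15 min 3 of 4 were at least 2-fold lower and Eef1a1 was at least 2-fold higher, against 46.9% lower and 17.2% higher among all tested. At 700 mOsm for 2 h it was 2 of 4 lower and 1 higher, against 45.5% lower and 16.6% higher, and with the deposited RPKM Pabpc1 (-1.10) also counted as lower.

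In recovery, 1 of 4 was at least 2-fold lower at 15 min after the short exposure, where 0.520% of all tested transcripts were, and that member was Pabpc1. None was 2-fold changed at 2 h after the short exposure, against 0.249% lower and 0.667% higher in all. At 15 min after the long exposure 2 of 4 were lower, Pabpc1 and Rplp0, against 5.10%. At 2 h after it 1 of 4 was lower, Rplp0, against 7.14%. With only 4 members such counts describe these transcripts and nothing wider.

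The median footprint change of the 4 was below that of all tested transcripts in 7 of the 8 comparisons with unstressed cells. It was -1.18 at 500 mOsm against -0.13 for all, -1.53 against -0.40 at 600 mOsm, -1.38 against -0.80 at 700 mOsm for 15 min and -1.14 against -0.80 at 2 h. In recovery from the short exposure it was -0.52 against -0.04 at 15 min and 0.11 against -0.03 at 2 h. In recovery from the long exposure it was -0.66 against -0.11 at 15 min and -0.21 against -0.13 at 2 h. A median hides how far the members parted, since their changes spanned 0.32 on the log2 scale at 2 h of recovery from the short exposure and 5.12 at 600 mOsm.

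The ratio between the 2 elongation factors within a library does not depend on the library factor. Footprints per coding length on Eef1a1 were 55.7 and 56.5 times those on Eef2 at 700 mOsm for 2 h, against 5.64 and 5.73 times in unstressed cells. The ratio was 38.8 and 39.8 at 700 mOsm for 15 min, and it was 4.65 and 4.70 after 15 min of recovery from it. In RNA the same ratio was 3.61 and 3.85 at 700 mOsm for 2 h, against 3.31 and 2.77 in unstressed cells. The footprint ratio of Eef2 to Rplp0 was 55.5 and 78.8 at 600 mOsm, 45.3 and 42.4 at 2 h of recovery from the long exposure, and 5.81 and 6.00 in unstressed cells.

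**Figure D3:**
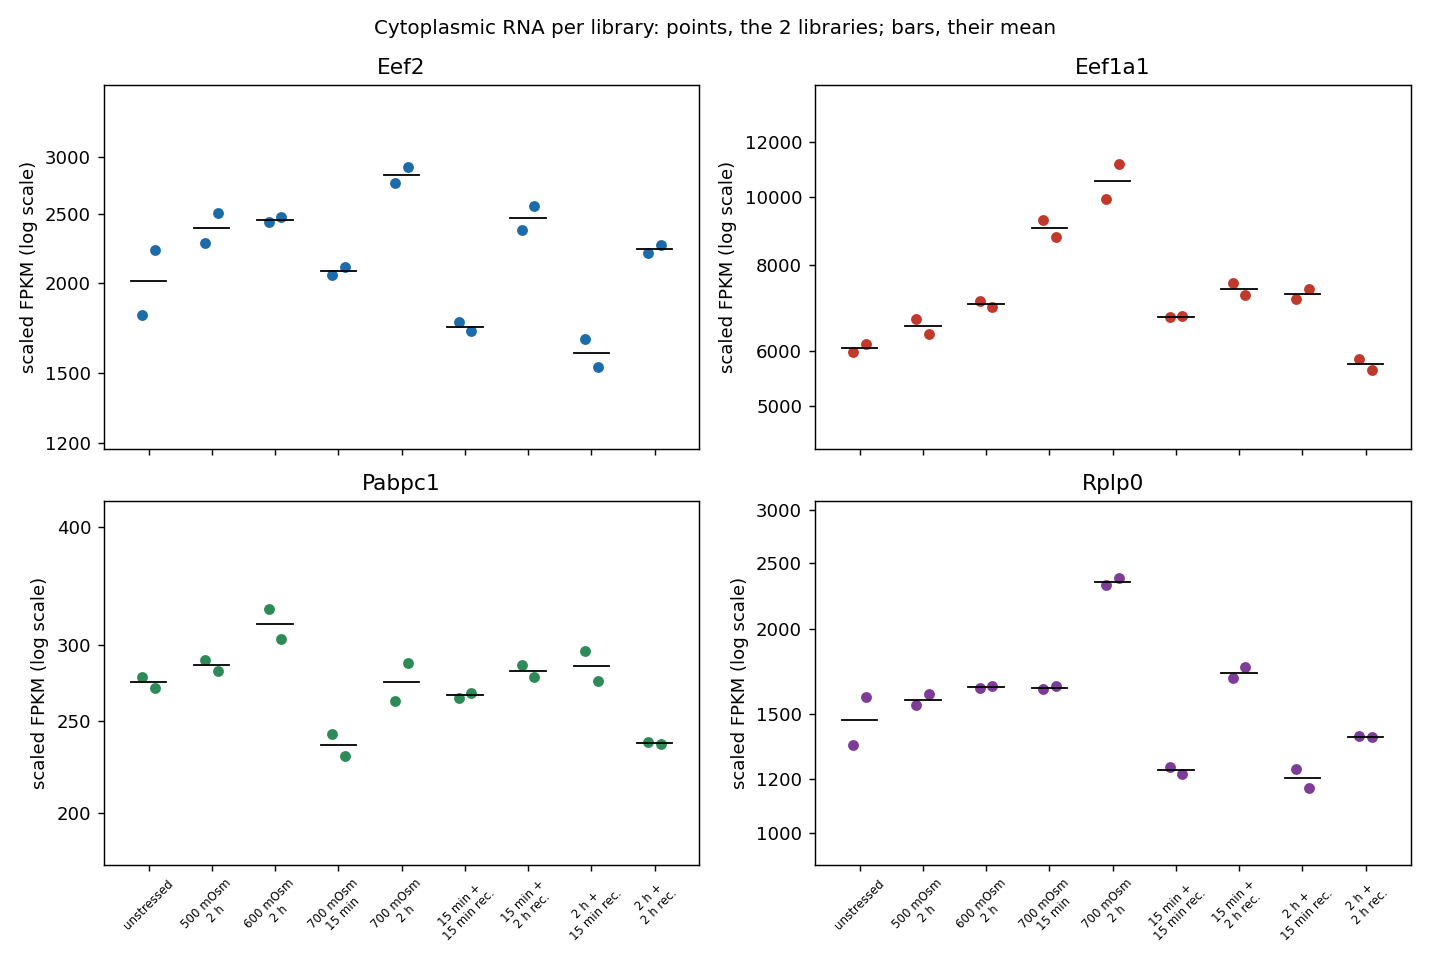
Scaled FPKM of cytoplasmic RNA (log axis) for the 4 transcripts in the 9 conditions as labelled, with 1 point per library and a bar at the mean of the 2 libraries. Eef1a1, Eef2 and Rplp0 are highest at 700 mOsm for 2 h, Pabpc1 is highest at 600 mOsm, and the 2 unstressed libraries of Eef2 and Rplp0 lie apart from each other.

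RNA of Eef1a1, Eef2 and Rplp0 rose at 700 mOsm for 2 h, while Pabpc1 RNA did not pass the test there. Eef1a1 had 9958 and 11175 scaled FPKM at 700 mOsm for 2 h, against 5978 and 6151 in unstressed cells, a log2 change of 0.80 ± 0.08 (SE, adjusted p = 5.05e-07). Rplp0 had 2320.5 and 2378 scaled FPKM against 1350.1 and 1585 in unstressed cells, a change of 0.68 ± 0.07 (adjusted p = 1.29e-06). Eef2 had 2760.0 and 2904 scaled FPKM against 1805 and 2223 in unstressed cells, a change of 0.50 ± 0.09 (adjusted p = 0.000403). In all 3 both stressed libraries lay above both unstressed ones. For Pabpc1 the values were 262 and 287 scaled FPKM against 278 and 271 in unstressed cells, and the groups overlapped (change 0.00 ± 0.08, adjusted p = 0.992).

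Across the 9275 transcripts tested, 18.7% rose and 31.0% fell in that comparison. The rise of these 3 RNAs held in all 11 alternatives of the RNA test. At 700 mOsm for 15 min, 2 of 4 rose and 1 fell, where 19.3% of all tested rose and 30.5% fell. Eef1a1 had 9291 and 8778 scaled FPKM against 5978 and 6151 in unstressed cells (0.57 ± 0.07, adjusted p = 5.04e-06), which held in all 11 alternatives.

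At the same time point Rplp0 RNA rose to 1629 and 1646 scaled FPKM, against 1350.1 and 1585 in unstressed cells (0.16 ± 0.06, adjusted p = 0.0389). Pabpc1 RNA fell to 242 and 229 scaled FPKM, against 278 and 271 in unstressed cells (-0.22 ± 0.07, adjusted p = 0.0146). Eef2 had 2057 and 2104, between the 2 unstressed libraries at 1805 and 2223, and did not pass (0.05 ± 0.08, adjusted p = 0.617). The Rplp0 call was lost without unstressed RNA replicate 1 or without either library at 700 mOsm for 15 min, and with the deposited FPKM, no filter or the compared groups only (adjusted p up to 0.641 over the alternatives). The Pabpc1 call was lost without either unstressed library, without replicate 2 at 700 mOsm for 15 min and with TMM factors (up to 0.117).

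All 4 RNAs were higher at 2 h than at 15 min of 700 mOsm, a contrast added after the data had been seen, in which 22.4% of all tested rose. The log2 changes were 0.44 ± 0.07 for Eef2 (adjusted p = 6.04e-05), 0.22 ± 0.05 for Eef1a1 (0.00266), 0.22 ± 0.06 for Pabpc1 (0.00392) and 0.52 ± 0.05 for Rplp0 (8.15e-07). Footprints in the same contrast were higher for Eef1a1 (0.41) and Pabpc1 (0.59) and lower for Rplp0 (-0.22) and Eef2 (-0.10), the last turning to 0.08 with TMM factors.

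At the milder doses little passed the test. At 500 mOsm 0 of 4 members did with limma, where 1.55% of all tested rose and 1.89% fell. Eef2 had the lowest limma p of the 4, 0.0112 before adjustment. It had 2276 and 2502 scaled FPKM at 500 mOsm against 1805 and 2223 in unstressed cells, both higher (limma's adjusted p = 0.169). At 600 mOsm only Eef2 rose, at 2429.7 and 2475 scaled FPKM (0.29 ± 0.08, adjusted p = 0.0329), where 3.87% of all tested rose and 9.11% fell. That call was lost without unstressed RNA replicate 1 or without either 600 mOsm library, and with no filter or the compared groups only (up to 0.600). The other 3 had changes of 0.17 to 0.21 with adjusted p of 0.0527 to 0.104.

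**Figure D4:**
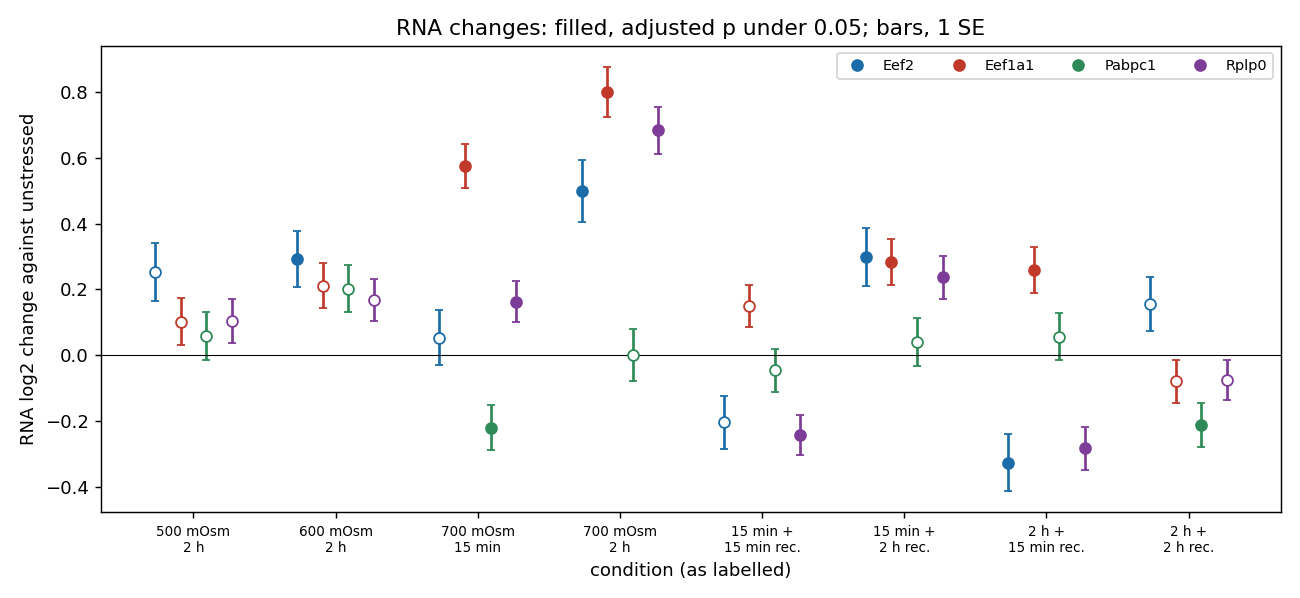
RNA log2 change against unstressed cells for the 4 transcripts in the 8 other conditions as labelled, with bars of 1 SE from limma (n = 2 per condition). Filled points have an adjusted p under 0.05 and open points do not, and the highest filled points are Eef1a1 (0.80) and Rplp0 (0.68) at 700 mOsm for 2 h.

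In recovery from the short exposure, Rplp0 RNA fell at 15 min, with 1253 and 1221 scaled FPKM against 1350.1 and 1585 in unstressed cells (-0.24 ± 0.06, adjusted p = 0.0224). It was 1 of 4 members to pass, where 4.39% of all tested rose and 2.59% fell. The call was lost without unstressed RNA replicate 2, without replicate 2 of the recovering cells or with the compared groups only (up to 0.4997). In the libraries labelled 2 h of recovery, 3 of 4 rose, where 4.92% of all tested rose and 8.37% fell. They were Eef2 (0.30 ± 0.09, adjusted p = 0.0335), Eef1a1 (0.28 ± 0.07, 0.0147) and Rplp0 (0.24 ± 0.07, 0.0259). All 3 calls were lost without unstressed RNA replicate 1 and with the compared groups only (up to 0.528). Eef2 and Rplp0 were also lost without replicate 2 of the recovering cells, and Eef1a1 without replicate 1 of them or without unstressed replicate 2. With no filter Eef2 and Eef1a1 were lost.

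In the libraries labelled 15 min of recovery after the long exposure, Eef1a1 rose (0.26 ± 0.07, adjusted p = 0.0208), and Eef2 (-0.33 ± 0.09, 0.0200) and Rplp0 (-0.28 ± 0.06, 0.00929) fell, where 8.09% of all tested rose and 6.27% fell. Eef2 had 1670.5 and 1530.1 scaled FPKM there, below both unstressed libraries. All 3 calls were lost without unstressed RNA replicate 2, without replicate 2 of the recovering cells and with the compared groups only (up to 0.435). Eef1a1 was also lost without unstressed replicate 1 and with no filter. At 2 h of recovery after the long exposure only Pabpc1 fell, to 237 and 236 scaled FPKM against 278 and 271 in unstressed cells (-0.21 ± 0.07, adjusted p = 0.0325), where 13.9% of all tested rose and 8.28% fell. That call was lost when any 1 of the 4 libraries was left out, and with no filter or the compared groups only (up to 0.284).

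Of the 32 tests of a member in a condition, 15 passed, where 21.6% of the 74200 tests of all transcripts in the same 8 comparisons did. The 4 that held in all 11 alternatives were Eef1a1 at both times of 700 mOsm and Eef2 and Rplp0 at 2 h of it, and the other 11 were lost in 3 to 6 alternatives. All 8 comparisons share the same 2 unstressed RNA libraries, so the 32 tests are not independent of each other. That pair had the largest chi-square statistic per degree of freedom of the RNA pairs, 47.1, where the smallest was 3.44. In the order of the 9 condition means, neighbours overlapped in 5 of 8 places for Pabpc1 RNA, 4 of 8 for Rplp0, 3 of 8 for Eef2 and 1 of 8 for Eef1a1. For footprints the libraries overlapped in at most 1 of 8 places.

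Footprints per RNA, the ratio of scaled RPKM to scaled FPKM, ordered the members in the same way in unstressed and stressed cells, with Rplp0 always lowest. In unstressed cells the log2 ratio was 0.87 for Eef1a1, 0.83 for Pabpc1, -0.05 for Eef2 and -2.15 for Rplp0, where the median of 8446 transcripts was 0.64. Rplp0 thus stood among the lowest 0.852% of transcripts before any stress. Its rank here and under stress depends on how reads that match several places were counted, which is not given. Since the 2 assays differ in length basis and library making, the level of the ratio has no absolute meaning and only its place among transcripts is given.

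**Figure D5:**
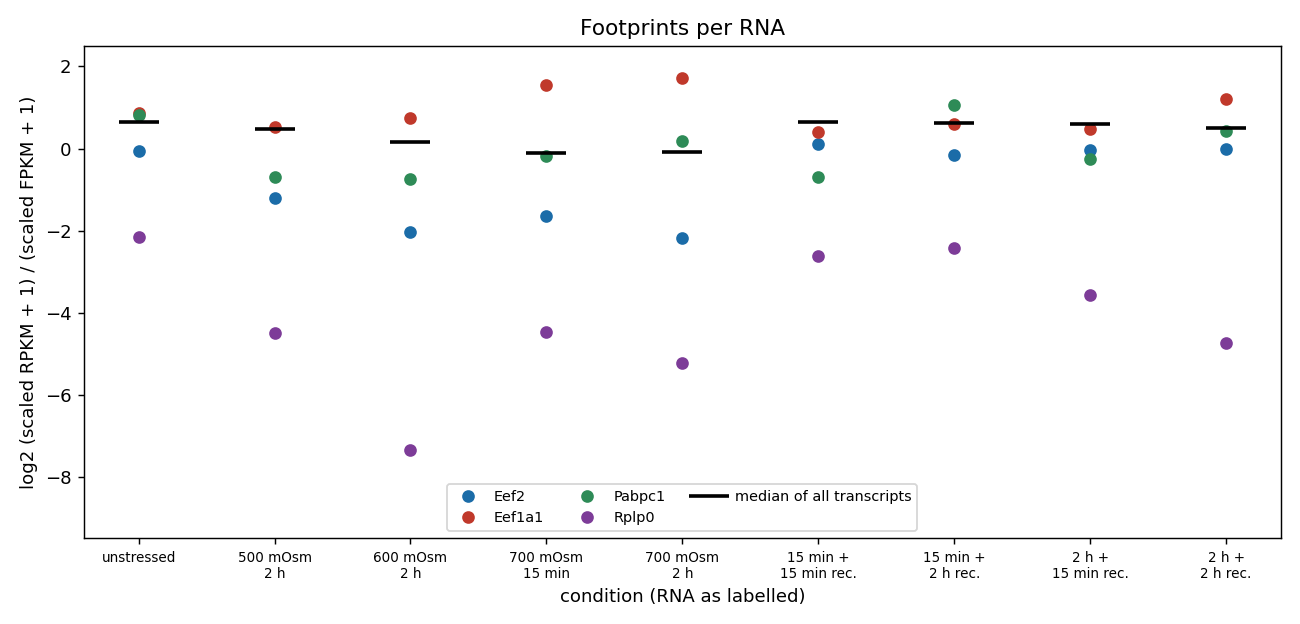
Log2 ratio of footprints to RNA (scaled RPKM + 1 over scaled FPKM + 1) for the 4 transcripts in the 9 conditions, with a black bar at the median of 8446 transcripts. Rplp0 is the lowest member throughout and reaches -7.34 at 600 mOsm, and Eef1a1 is the highest at 700 mOsm, at 1.54 and 1.72.

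At 700 mOsm for 2 h the log2 ratio was 1.72 for Eef1a1, 0.19 for Pabpc1, -2.19 for Eef2 and -5.22 for Rplp0, against a median of -0.08. Eef1a1 was then above 79.8% of transcripts, while it was above 59.1% in unstressed cells. For Rplp0 the ratio was -7.34 at 600 mOsm, place 8445 of 8446 from the top. At 15 min of recovery after the short exposure, where neither the RNA label nor the footprints are in doubt, Pabpc1 had a ratio of -0.70 and stood above 8.74% of transcripts, against 57.6% in unstressed cells.

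Set against RNA, the footprint change of Eef1a1 at 700 mOsm remained positive, by 0.67 at 15 min and 0.85 at 2 h on the log2 scale. With the deposited RPKM and FPKM it was 0.17 at 15 min and 0.47 at 2 h. At the milder doses Eef1a1 had -0.34 at 500 mOsm and -0.12 at 600 mOsm, or -0.25 and 0.015 with the deposited values. The other members had a footprint change below their RNA change in all 4 stresses: by -1.16 to -2.15 for Eef2, by -0.63 to -1.56 for Pabpc1 and by -2.33 to -5.19 for Rplp0. The median of the 4 was -1.34 at 500 mOsm, -1.78 at 600 mOsm, and -1.30 (15 min) and -1.39 (2 h) at 700 mOsm. For all 8446 transcripts it was -0.14 at 500 mOsm, -0.44 at 600 mOsm, and -0.71 (15 min) and -0.56 (2 h) at 700 mOsm. In recovery the median of the 4 was -0.48 and -0.18 at 15 min and 2 h after the short exposure, and -0.73 and -0.18 after the long one. For all transcripts it was -0.04 and -0.02 after the short exposure, and -0.11 and -0.16 after the long one.

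Footprint profiles were compared by the root mean square difference over the 8 changes against unstressed cells, among well-covered transcripts. Eef1a1 differed by 1.501 from Pabpc1, by 1.68 from Eef2 and by 2.95 from Rplp0, each more than its median difference of 1.03 to the 1493 others. Eef2 and Pabpc1 differed by 0.79, less than the median of Eef2 (1.11) and that of Pabpc1 (1.22). Seen from Pabpc1, Eef2 ranked 43 of 1493 in closeness, and seen from Eef2, Pabpc1 ranked 433. Rplp0 differed by 1.72 from Pabpc1 and by 1.75 from Eef2, less than its own median of 2.45 (ranks 199 and 214 seen from Rplp0). Those 2 differences were above the medians of Pabpc1 and Eef2, from which Rplp0 ranked 1287 and 1257. Nearest to Eef2 outside the 4 was a transcript of 349 codons, at 0.26, and nearest to Pabpc1 one of 363 codons, at 0.42.

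Nearest to Eef1a1 was ENSMUST00000029722, with 265 codons within 977 nt, at a difference of 0.18. It had 8534 and 8201 scaled RPKM at 700 mOsm for 15 min and 8144 and 8327 at 2 h, against 2995 and 3009 in unstressed cells. Its footprints were thus raised at both times of 700 mOsm as those of Eef1a1 were, with log2 changes of 1.48 and 1.46. Such likeness follows from the choice, since the nearest transcripts were picked by these same changes.

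Nearest to Rplp0 was ENSMUST00000076373, at 0.48, with 318 codons within 1075 nt. Its coding length equals that of Rplp0, which 16 of the 11037 listed transcripts share. It had 6.58 and 8.62 scaled RPKM at 600 mOsm, against 149 and 151 in unstressed cells, on 42 reads against 2291. Its RNA was 1119.5 and 1168 scaled FPKM at 600 mOsm, against 914 and 1069.7 in unstressed cells. Whether the 2 transcripts share reads was not tested. With both summed, the footprint log2 change was -4.76 at 600 mOsm, -2.40 (15 min) and -2.25 (2 h) at 700 mOsm, and -2.70 at 2 h of recovery from the long exposure, where Rplp0 alone had -5.03, -2.17, -2.39 and -2.68.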

How the data were processed

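The 36 libraries held ribosome footprints or cytoplasmic RNA. The authors deposited RPKM per transcript for footprints, and FPKM per transcript for RNA, in 1 list per library. Cutadapt, Bowtie, STAR and GRCm38 are named, without versions or roles, per the submitters' processing notes, and the sources used here do not give the annotation or the counting rule. Whole reads and lengths were recovered from the deposited values: 100% of the values gave whole reads at a relative tolerance of 1e-09, which follows largely by construction. Footprint depth was 732769 to 9102097 reads and RNA depth 6851958 to 55262396, and intervals cover counting error only (the libraries are not stated to carry molecular identifiers).

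Libraries were scaled by median ratios over transcripts with a mean of at least 10 (4619 for footprints, 5705 for RNA). A change is a difference of log2(scaled value + 1), a scale on which low transcripts change too little, over transcripts with a mean of at least 2. The RNA test was limma's (version 3.58.1, R 4.3.3), in 1 fit over 18 libraries with a weight per group and a mean-variance trend, two-sided, with Benjamini-Hochberg adjustment over all 9275 transcripts at 0.05. The footprint tests were replaced by descriptions because replicate libraries differed by little more than sampling noise. The RNA test was tried on simulated reads for 700 mOsm for 2 h against unstressed cells. It recovered 82 of 100 log2 changes of 0.5 and 100 of 100 of 1, with 13 false calls over 9284 transcripts. All simulated libraries shared the same spread, so the larger spread of the real unstressed pair was not covered. Percentiles among well-covered transcripts used the 1494 with at least 100 reads expected, from their unstressed level, in the shallowest footprint library. Transcripts read mainly under stress or in recovery can thus be missing from that set. Alternatives were deposited values, TMM factors, a pseudocount of 0.25, no filter, equal weights, the compared groups only, a replicate block and leaving out each library.

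The 4 transcripts, the alternatives and the tests were chosen with earlier results of these data known. The rule for named transcripts was the 4 members and, for each, the transcript with the nearest footprint profile, of which 2 are printed. A planned list of other translation genes and the fibroblast markers were not applied, since the tables used here do not pair Ensembl transcript identifiers with symbols. Replicate numbers were not taken to mark shared samples in the main RNA test. Over 36 pairs of conditions the correlation of same-numbered RNA libraries' deviations ran from -0.31 to 0.31. It was over 0.1 in 6 of them, so whether some conditions shared samples is not known.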

Additional observations from a re-analysis of the deposited data

Results flagged for a closer look

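Footprint changes against unstressed cells took opposite signs at 2 h and 15 min of recovery for 3 members, and these differences were not tested, since each footprint condition is 1 sample. After the short exposure to 700 mOsm the log2 change was 0.19 at 2 h and -0.044 at 15 min for Eef2, 0.018 and -0.33 for Eef1a1, and 0.28 and -1.57 for Pabpc1. The value of 0.018 for Eef1a1 turned to -0.018 with the deposited RPKM. After the long exposure it was 0.19 at 2 h and -0.31 at 15 min for Eef2, and 0.27 and -0.14 for Eef1a1. For Pabpc1 the sign at 2 h of recovery differed between the exposures, at -0.61 after the long one and 0.28 after the short one, also untested.

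RNA at 700 mOsm differed between 2 h and 15 min in all 4 members by limma's test of the difference itself, a contrast added after the data had been seen, in which 22.4% of the 9275 tested transcripts rose. The log2 differences, 2 h minus 15 min, were 0.44 for Eef2, 0.22 for Eef1a1, 0.22 for Pabpc1 and 0.52 for Rplp0, with adjusted p-values of 6.04e-05, 0.00266, 0.00392 and 8.15e-07.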

How the results depend on the processing

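Of 352 RNA tests of a member under an alternative, 295 kept direction and side of the threshold, 47 lost the call and 10 gained it. A count-model test on recovered reads is left out of these counts, because the values were deposited as RPKM and FPKM. It was tried and its results were not kept, so its calls are not compared with those of limma. The cause of each shift below was not tested.

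With the deposited RPKM the median footprint change of the 4 against unstressed cells was -1.10 at 500 mOsm and -1.41 at 600 mOsm, -1.94 (15 min) and -1.61 (2 h) at 700 mOsm, 0.070 at 2 h of recovery from the short exposure and -0.62 at 15 min from the long one. With TMM factors it was -0.97, -1.13 and -1.05 at 500, 600 and 700 mOsm for 2 h, 0.14 at 2 h after the short exposure, and -0.60 and -0.088 at 15 min and 2 h after the long one. Between stressed groups it was 0.55 (deposited) and 0.83 (TMM) for 700 against 600 mOsm, -0.16 (TMM) for 600 against 500 mOsm and 0.34 (TMM) for 2 h against 15 min. For 15 min of recovery against the stress it was 1.14 (deposited) and 0.66 (TMM) after the short and 0.67 (deposited) after the long exposure. Reversed single changes were those of Eef2 for 700 against 600 mOsm (-0.53 deposited, -0.25 TMM) and for 2 h against 15 min (0.081 TMM), of Pabpc1 for 15 min of recovery against stress (0.24 after the short and 0.13 after the long exposure, deposited), and of Eef1a1 at 2 h of recovery from the short one (-0.018, deposited).

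With deposited RPKM and FPKM the median footprint-to-RNA change was -1.25 at 500 mOsm and -1.65 at 600 mOsm, -1.80 (15 min) and -1.77 (2 h) at 700 mOsm, and -0.66 at 15 min after the long exposure. Leaving out 1 library gave -1.40 to -1.27 at 500 mOsm, -1.85 to -1.72 at 600 mOsm, -0.54 to -0.41 and -0.27 to -0.058 at 15 min and 2 h after the short exposure, and -0.25 to -0.12 at 2 h after the long one.

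Members with changed RNA at 600 mOsm numbered 2 with deposited FPKM or TMM factors, 3 with equal weights, and 0 with no filter or the compared groups only. At 15 min after the short exposure the compared groups only gave 0, and at 2 h no filter gave 1 and the compared groups only gave 0. After the long exposure the compared groups only gave 0 at both times and no filter 0 at 2 h. Leaving out 1 library gave 0 to 1 at 500 mOsm, 0 to 2 at 600 mOsm, 1 to 2 at 700 mOsm for 15 min, 0 to 1 and 0 to 2 after the short exposure, and 0 to 3 and 0 to 1 after the long one. The replicate block gave 3 at 600 mOsm in place of 1 and changed no other count of members by more than 1.5 times, and 6 of 36 pairs of conditions had a same-number correlation over 0.1.

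Counts over all transcripts moved by over 1.5 times at 500 mOsm (319 with limma, 936 with equal weights, 149 to 263 without 1 library) and 600 mOsm (1204, 2285, 350 to 916). They did so at 15 min after the short exposure (647, 1415, 202 to 534, 1067 with no filter, 322 with the compared groups only) and at 2 h (1232, 2902, 273 to 1091, 502 with the compared groups only). After the long exposure they were 1332, 2847, 257 to 1146 and, with the compared groups only, 877 at 15 min, and 2054, 3090 and 610 to 1908 at 2 h. Depth limits Rplp0 most, with 52, 96 and 77 footprint reads at 600 mOsm, 700 mOsm for 15 min and 2 h.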
